A study of Sus scrofa with 9 samples.

Results

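The extracellular matrix genes measured here are the collagens and the proteins that assemble, crosslink and remodel them. Members were chosen by symbol: genes whose name begins as a collagen chain, a laminin chain, a fibrillin, a fibulin, an ADAMTS or ADAMTS-like protein, a lysyl oxidase, a TIMP inhibitor or a matrix metalloproteinase, plus DPT, MGP, LUM, DCN, FN1, POSTN and SPARC. The symbols COL17A1, LAMA3, LAMB3, MMP1, MMP3, MMP7, MMP9, MMP12 and MMP13 were left out by name, though all 9 were measured. The rule was set with earlier results of these data known, so counts hold for the chosen members and not for matrix genes at large. Of 12217 genes with a probe set of a single symbol, 77 were members. They were 28 collagen chains, 4 laminins, 5 fibrillins and fibulins, 7 proteoglycans and glycoproteins, 4 lysyl oxidases, 13 ADAMTS proteases, 3 ADAMTS-like proteins, 8 matrix metalloproteinases and 3 TIMP inhibitors. The remaining 2, COL4A3BP, a ceramide transfer protein, and LOXHD1, a protein of hair-cell stereocilia, matched the name pattern but are no matrix genes. LOXHD1 was called in no comparison. COL4A3BP was lower in spheroids than in ESMG in the reported fit (-0.82, limma adjusted p = 0.0106) but under the 2-fold minimum, so it was not called there. It was called lower after cyclic loess (-1.004) and without the ESMG array of pig 40 (-1.09). ADAMTS5 and COL4A5 were not analysed here, since the platform annotation gives several entries for their probe sets.

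RNA came from 3 kinds of pig sample, each from 3 pigs with 1 Affymetrix PorGene array per sample. Spheroids had been grown in vitro from esophageal submucosal glands (ESMG) and are labelled pig 1, 2 and 3. They were kept in growth factor reduced Matrigel, a basement membrane extract, under Advanced DMEM/F12 with 10 mM HEPES, B27, N2 and 50 ng/ml recombinant human EGF. ESMG, the mucus-secreting glands under the esophageal lining, and the squamous tissue above them were both taken from control pigs 37, 39 and 40; how these relate to the spheroid pigs, and the strain and age, are not given in the labels. RNA was isolated with an RNeasy Micro kit from spheroids and an RNeasy Universal Mini kit from both tissues. In the spheroid comparisons kit, culture and the differently labelled sets of pigs therefore cannot be told apart. Both tissues were bulk samples in which epithelium, fibroblasts, muscle and vessels were not separated, and for these a smaller share of cells of a type and less RNA per cell cannot be told apart.

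Fibroblasts and smooth muscle cells secrete the fibril-forming collagens and the small proteoglycans that coat the fibrils, and lysyl oxidases crosslink collagen and elastin outside the cell. Epithelial and endothelial cells rest on a basement membrane of laminins and type IV collagen, to which several cell types contribute. Matrix metalloproteinases and ADAMTS proteases cut these proteins, and TIMPs inhibit both families. In the esophagus this matrix forms the lamina propria and submucosa around the glands and beneath the squamous lining.

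All values are log2 RMA levels, on which a step of 1 is a 2-fold difference, and levels of different genes are not compared with each other. Array medians lay between 6.84 and 7.04 and lower quartiles between 5.36 and 5.65. The members COL9A1 and ADAMTS20 lay under the lower quartile on all 9 arrays, and 63 members lay above the array median on at least 1 array. A gene was called at a limma adjusted p under 0.05 and a difference of at least 2-fold. The number of arrays limits the precision. The ESMG array of pig 40 held the highest ESMG level of 54 of 77 members and of 45.6% of all genes.

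Spheroids were first set against ESMG, the tissue type they were grown from. In spheroids 32 of 77 members fell, against 8.91% of all genes, and 4 rose, against 7.99% of all genes, so 36 were called in either direction, against 16.9% of all genes. The fallen members had a median log2 difference of -3.36, 24 of them fell at least 4-fold, 19 at least 8-fold and 8 at least 16-fold. Over all 77 members the median was -0.38, and over all genes tested it was 0.09. By role, 9 of 28 collagen chains fell. All 7 proteoglycans and glycoproteins fell too, but these are the 7 genes the rule named singly, with earlier results of these data known. Their count therefore describes the choice and is no result about such genes in general. The arrays of the groups did not overlap for 41 members lower in spheroids (21.0% of all genes were) and 9 higher (30.3% of all genes were), and these included all 32 fallen members.

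**Figure D1:**
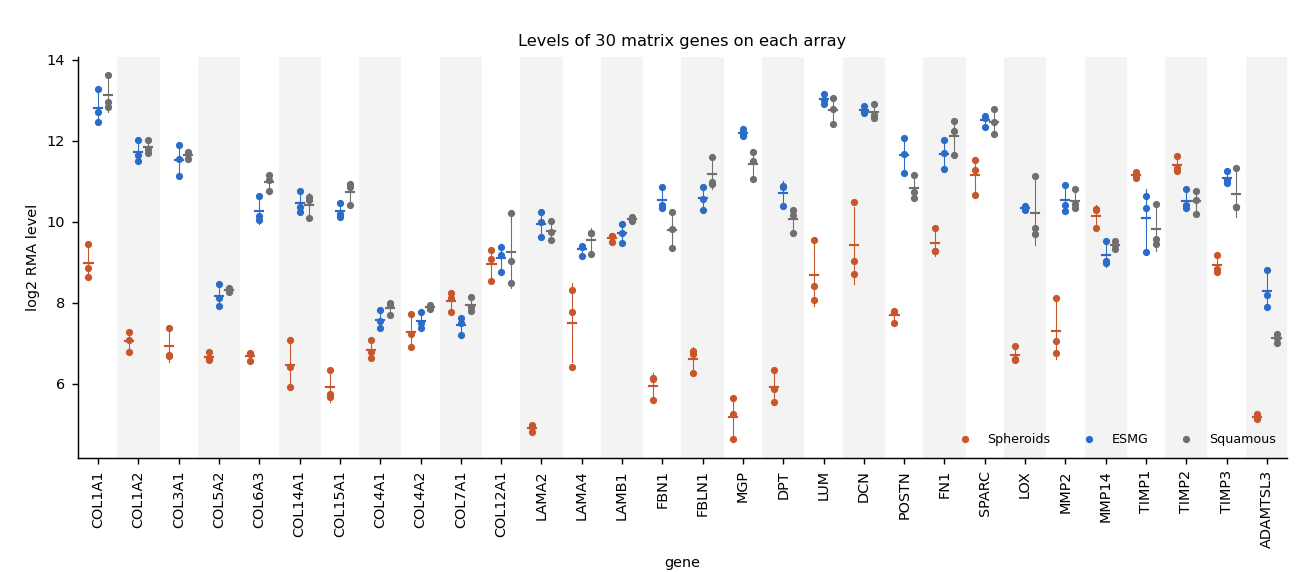
Log2 RMA levels of 30 matrix genes, one point per array, with spheroids (orange) left of ESMG (blue) and squamous tissue (grey); horizontal bars are means and vertical lines 1 SD (n = 3 each). MGP, LAMA2 and COL1A2 lie far lower in spheroids than in either tissue, COL12A1 overlaps between spheroids and both tissues, and TIMP1, TIMP2 and MMP14 lie higher in spheroids on average.

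Among fibril-forming collagens 4 of 10 fell, and these included both chains of type I collagen, the main collagen of connective tissue. COL1A1 had levels of 9.44, 8.86 and 8.64 in spheroids, against 12.46, 12.71 and 13.26 in ESMG. COL1A2, its partner chain, had 7.28, 7.07 and 6.80 in spheroids, against 11.50, 11.65 and 12.01 in ESMG. Every spheroid array was below every ESMG array for both chains, by 14.2-fold for COL1A1 (log2 difference -3.83, SE 0.27, adjusted p = 1.02e-06) and 25.5-fold for COL1A2 (-4.67, SE 0.18, adjusted p = 1.81e-08). COL3A1, the type III collagen of distensible tissue, had 7.37, 6.68 and 6.72 in spheroids, against 11.13, 11.55 and 11.88 in ESMG. Its groups did not overlap either, and it was 24.2-fold lower (-4.60, SE 0.22, adjusted p = 5.88e-08).

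Type V collagen nucleates fibrils, and 1 of its 3 chains fell. COL5A2 fell 2.81-fold, to 6.67 ± 0.11 in spheroids, against 8.16 ± 0.27 for ESMG (SD, n = 3 each; adjusted p = 1.61e-05). COL5A1 differed by -0.19 (95% interval narrower than 2-fold either way, adjusted p = 0.467) and COL5A3 by -0.38 (adjusted p = 0.123). Neither was called. The cartilage chains COL2A1, COL11A1 and COL11A2 and the minor fibrillar chain COL27A1 were not called either, with differences from -0.17 to 0.19.

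Fibril-associated collagens sit on the surface of fibrils, and 2 of 6 fell. COL14A1 had 6.41, 5.93 and 7.09 in spheroids, against 10.25, 10.37 and 10.75 in ESMG, which is 15.8-fold lower (-3.98, SE 0.26, adjusted p = 6.35e-07). COL21A1 fell 2.33-fold. COL12A1, the relative of COL14A1, had 9.30, 8.53 and 9.07 in spheroids, against 9.37, 8.77 and 9.19 in ESMG. These overlapped, with a difference of -0.14 (adjusted p = 0.788). COL9A1, COL16A1 and COL19A1 differed by -0.15 to 0.10 and were not called.

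Type VI collagen forms beaded filaments around cells. COL6A3, a chain of these filaments, fell in spheroids, at 6.76, 6.73 and 6.56 against 10.13, 10.04 and 10.64 in ESMG (-3.59, SE 0.18, adjusted p = 8.34e-08). The gene has 3 probe sets, which gave differences of -3.59, -2.71 and -4.57. COL6A5 fell 2.10-fold, close to the 2-fold minimum, and was called in 10 of the 14 settings in which it was tested, and fell short of 2-fold after quantile normalization (-0.92), under equal array medians (-0.96), with array weights (-0.95) and without the spheroid array of pig 3 (-0.94). COL1A1 also has a second probe set, which gave -2.91.

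Of 6 basement membrane collagens 1 fell. COL15A1, which links basement membranes to the fibrils beneath, had 5.76, 6.34 and 5.67 in spheroids, against 10.19, 10.12 and 10.46 in ESMG. It fell 20.2-fold (-4.34, SE 0.20, adjusted p = 5.62e-08), with no overlap. The type IV network chain COL4A1 averaged 6.84 ± 0.22 in spheroids, against a mean of 7.59 ± 0.22 for ESMG (SD, n = 3 each). Its difference of -0.75 passed the adjusted p (0.00352) but not the 2-fold minimum. COL4A2, the partner of COL4A1 in the type IV trimer, differed by -0.26 (adjusted p = 0.319). COL7A1, the anchoring fibril collagen beneath squamous epithelium, had 8.12, 8.24 and 7.76 in spheroids, against 7.20, 7.51 and 7.62 in ESMG. All spheroid arrays of COL7A1 were the higher ones, but the difference of 0.59 (adjusted p = 0.0154) was under 2-fold. COL4A3 and COL4A6, chains of specialised basement membranes, differed by 0.12 and 0.28 and were not called, and none of the 4 short-chain and transmembrane collagens COL8A1, COL8A2, COL10A1 and COL23A1 was called (-0.17 to -0.02).

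Of the 4 laminin chains of the rule, which left out LAMA3 and LAMB3, 2 fell. LAMA2, the laminin chain of muscle and peripheral nerve, had 4.94, 4.98 and 4.82 in spheroids, against 9.63, 10.25 and 9.99 in ESMG. That is 33.0-fold (-5.04, SE 0.18, adjusted p = 1.38e-08), and the spheroid level lay under the lower quartile of every spheroid array. LAMA4, the chain of blood vessel walls, fell 3.50-fold (-1.81, SE 0.37, adjusted p = 0.00203), and its spheroid arrays were far apart at 6.42, 8.32 and 7.78, all below the ESMG levels of 9.16, 9.38 and 9.41. Its difference was -2.65 with array weights and -1.27 without the spheroid array of pig 1. LAMB1, a beta chain that many laminins share, had 9.65, 9.51 and 9.64 in spheroids, against 9.46, 9.73 and 9.94 in ESMG. Its arrays overlapped and its 95% interval for the difference of -0.11 ran from -0.43 to 0.20. LAMC3 differed by -0.33 (adjusted p = 0.108).

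**Figure D2:**
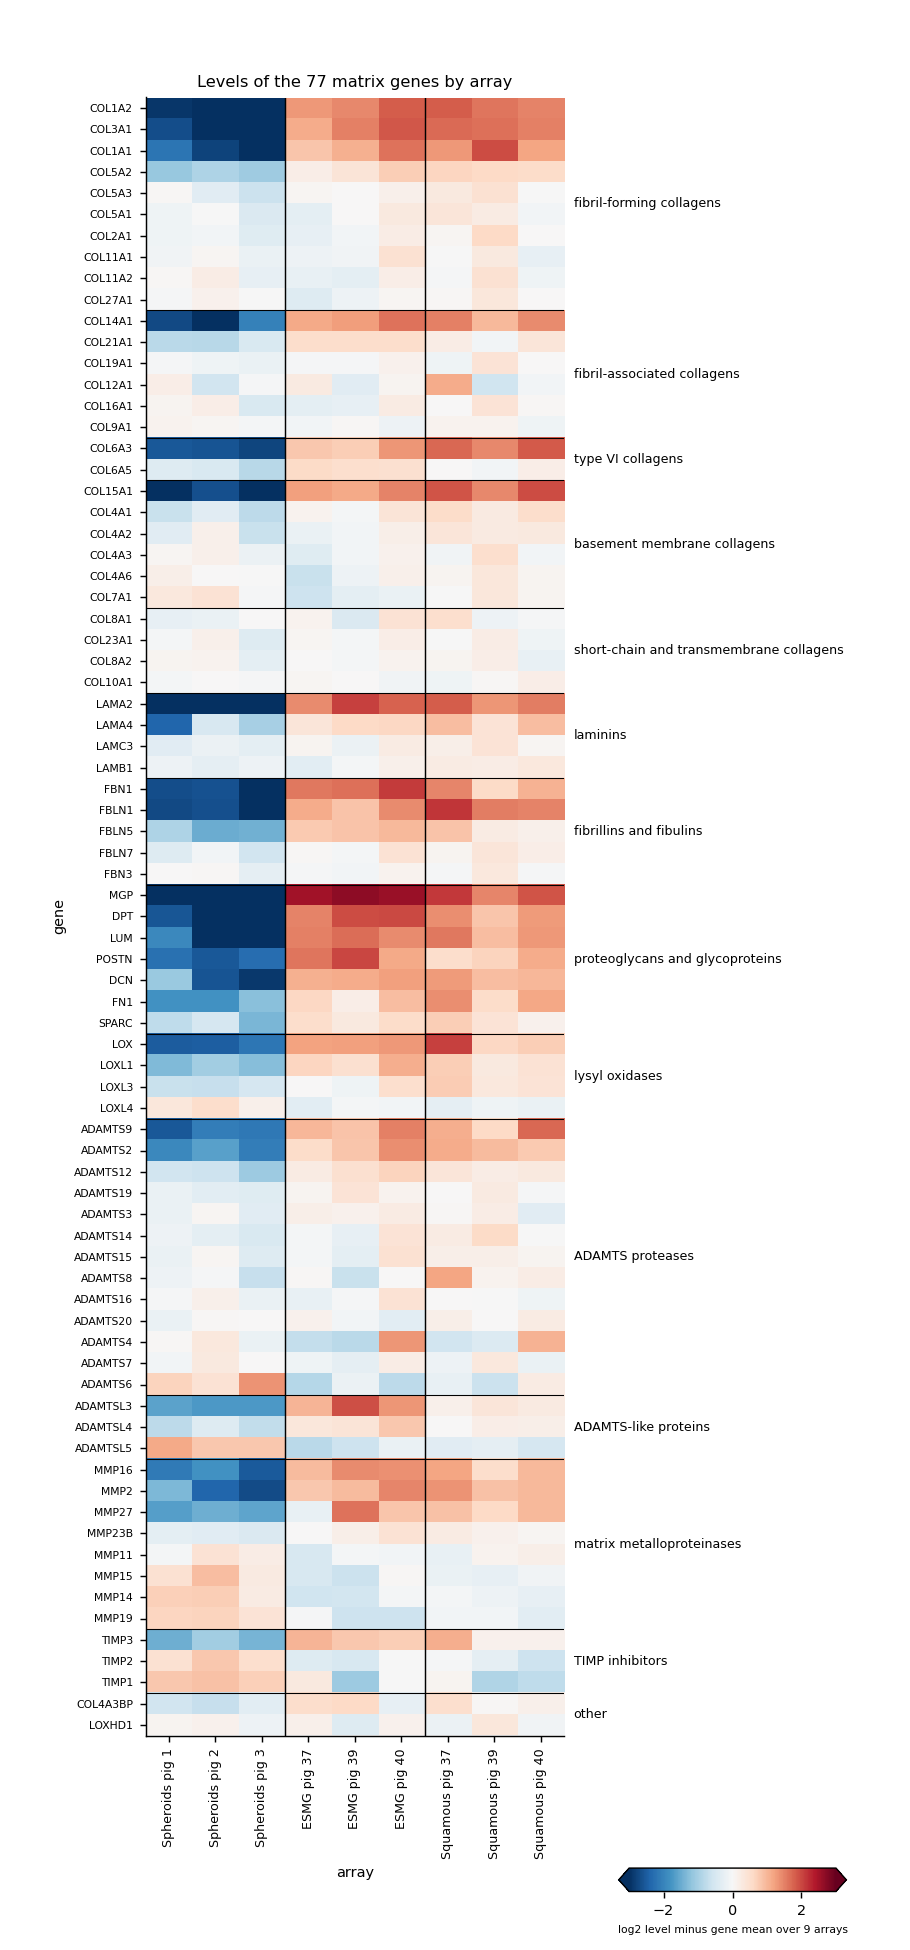
Levels of all 77 matrix genes on 9 arrays, as the log2 RMA level minus the mean of that gene over the arrays (colour, cut at 3 either way), in columns of spheroids, ESMG and squamous tissue and in rows by role. The spheroid columns are blue for the 32 fallen genes, while many collagens, ADAMTS proteases and COL8A1 to COL23A1 are nearly white throughout.

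The 7 proteoglycans and glycoproteins that the rule named singly all fell, with a median log2 difference of -3.94. MGP, an inhibitor of calcification, had 5.25, 5.66 and 4.63 in spheroids, against 12.12, 12.28 and 12.19 in ESMG. No other member fell as far (129-fold; -7.02, SE 0.24, adjusted p = 1.27e-08). The MGP level lay under the lower quartile on the spheroid arrays of pigs 1 and 3 (5.39 and 5.36). On that of pig 2 it was close above it (5.44). DPT, which binds decorin and collagen, fell 27.6-fold and had 6.35, 5.56 and 5.88 in spheroids, against 10.39, 10.87 and 10.88 in ESMG. The fibril-coating proteoglycan LUM had 9.55, 8.08 and 8.42 in spheroids, against 13.00, 13.15 and 12.92 in ESMG. DCN, its neighbour in the RefSeq gene order with no protein-coding gene between them, had 10.50, 9.03 and 8.72 in spheroids, against 12.69, 12.74 and 12.85 in ESMG. LUM was 20.2-fold and DCN 10.1-fold lower (DCN adjusted p = 1.9e-05), and in both genes the spheroid array of pig 1 was the highest of the 3. With array weights the differences were smaller, at -3.66 for LUM and -2.44 for DCN.

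POSTN, a matrix protein of collagen-rich tissue, fell 15.4-fold, to 7.69 ± 0.16 in spheroids, against 11.64 ± 0.43 for ESMG (SD, n = 3 each). FN1, fibronectin, had 9.28, 9.28 and 9.84 in spheroids, against 11.70, 11.29 and 12.03 in ESMG (4.61-fold; -2.21, SE 0.25, adjusted p = 3.46e-05). SPARC, a collagen-binding protein, had the smallest fall of these 7 genes, with 11.27, 11.53 and 10.66 in spheroids against 12.57, 12.33 and 12.60 in ESMG (2.54-fold; -1.34, SE 0.22, adjusted p = 0.000498). Its spheroid level stayed above the upper quartile of every spheroid array (8.45 to 8.52), and so did those of the fallen genes DCN, FN1, COL1A1 and TIMP3.

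Elastic fibre genes and crosslinking enzymes fell in part. FBN1, the main fibrillin of microfibrils, had 6.11, 6.14 and 5.59 in spheroids, against 10.35, 10.42 and 10.87 in ESMG (24.2-fold; -4.60, SE 0.24, adjusted p = 1.19e-07). FBLN1 fell 15.7-fold and FBLN5, needed for elastic fibre assembly, 4.48-fold. FBLN7 passed the adjusted p (0.0466) under 2-fold at -0.48, and FBN3 differed by -0.06. Among the lysyl oxidases, LOX had 6.59, 6.61 and 6.93 in spheroids, against 10.29, 10.32 and 10.38 in ESMG. It fell 12.3-fold (-3.62, SE 0.30, adjusted p = 3.43e-06) and LOXL1 3.85-fold (adjusted p = 8.33e-06). LOXL3 and LOXL4 went opposite ways under the fold minimum, at -0.75 (adjusted p = 0.00607) and 0.50 (adjusted p = 0.0149).

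The proteases and their inhibitors changed in both directions. Of the 8 matrix metalloproteinases kept by the rule, 3 fell and 1 rose. MMP2, a gelatinase that cuts type IV collagen, had 8.11, 7.07 and 6.77 in spheroids, against 10.26, 10.41 and 10.92 in ESMG (9.29-fold lower; -3.22, SE 0.30, adjusted p = 8.45e-06; -2.46 with array weights). MMP16, a membrane-anchored member, fell 10.6-fold (-3.40) and MMP27 4.98-fold. MMP14, the membrane protease that activates MMP2, ran the other way with 10.29, 10.32 and 9.84 in spheroids, against 8.99, 9.04 and 9.52 in ESMG. All spheroid arrays of MMP14 were above all ESMG arrays, but the difference of 0.96 (SE 0.18, adjusted p = 0.00117) was just under 2-fold. MMP15, another membrane-anchored protease, differed by 0.92 (adjusted p = 0.00352). Both passed 2-fold with array medians set equal (1.08 and 1.03), without the spheroid array of pig 3 (1.12 and 1.06) and without the ESMG array of pig 40 (1.13 and 1.11), and MMP14 also with array weights (1.18). MMP19 rose 2.01-fold (7.47 ± 0.14 in spheroids, 6.46 ± 0.34 for ESMG; SD, n = 3 each; adjusted p = 0.000749) and was called in 9 of 15 settings. It was under 2-fold, at 0.91 to 0.97, without the spheroid array of pig 1 or pig 2 or the ESMG array of pig 39 or pig 40, and at 0.97 after cyclic loess and 0.99 with array weights. MMP11 differed by 0.40 (adjusted p = 0.0937) and was not called. MMP23B passed the adjusted p (0.007) under 2-fold, at -0.56.

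Of the TIMP inhibitors, TIMP3, which stays bound to the matrix, fell 4.46-fold, with 8.77, 9.19 and 8.83 in spheroids against 11.26, 11.03 and 10.97 in ESMG (-2.16, SE 0.24, adjusted p = 2.96e-05). TIMP1, a soluble inhibitor, rose 2.10-fold, with 11.16, 11.23 and 11.07 in spheroids against 10.64, 9.25 and 10.35 in ESMG (1.07, SE 0.33, adjusted p = 0.0219). The call was lost without the ESMG array of pig 39, where the difference was 0.66 (adjusted p = 0.0753). With all arrays kept it was lost after cyclic loess (0.91, adjusted p = 0.058) and after quantile normalization (0.98, under 2-fold). It was also lost without the spheroid array of pig 1 (adjusted p = 0.0557) or pig 2 (adjusted p = 0.063). TIMP2 had 11.26, 11.62 and 11.32 in spheroids, against 10.42, 10.33 and 10.80 in ESMG, with no overlap and a difference of 0.88 (adjusted p = 0.00253) under 2-fold, which became 1.02 without the ESMG array of pig 40.

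Of 13 ADAMTS proteases 3 fell and 1 rose. ADAMTS9, which cuts the proteoglycan versican, fell 10.4-fold, with a mean of 5.23 ± 0.25 in spheroids, against 8.60 ± 0.35 for ESMG (SD, n = 3 each). ADAMTS2, which trims the ends of fibrillar procollagens, had 6.77, 7.09 and 6.65 in spheroids, against 9.26, 9.54 and 10.11 in ESMG (6.97-fold lower; -2.80, SE 0.21, adjusted p = 1.65e-06). ADAMTS12 fell 2.34-fold. ADAMTS6 rose 2.67-fold, with 7.82, 7.57 and 8.49 in spheroids against 6.29, 6.97 and 6.37 in ESMG (1.42, SE 0.28, adjusted p = 0.0016). The other ADAMTS proteases differed by -0.49 to 0.14 and were not called, though ADAMTS19 passed the adjusted p (0.0174) at -0.49. Among them ADAMTS4 differed by 0.11, and by 0.81 (adjusted p = 0.121) without the ESMG array of pig 40. ADAMTS-like proteins lack the protease domain, and all 3 were called: ADAMTSL3 fell 8.60-fold, ADAMTSL4 fell 2.23-fold and ADAMTSL5 rose 2.75-fold, to 8.87 ± 0.19 in spheroids, against 7.41 ± 0.31 for ESMG (SD, n = 3 each; adjusted p = 4.9e-05).

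In all, 41 members were not called between spheroids and ESMG. Of these, 5 passed the adjusted p with a higher level in spheroids and 6 with a lower one, all under 2-fold; with no fold minimum 9 were higher (23.9% of all genes were) and 38 lower (17.6% of all genes were). For 34 of the 77 members the 95% interval of the difference lay inside 2-fold either way. Among the 32 fallen genes, ADAMTS9, ADAMTSL3, COL6A5, LAMA2 and MMP27 lay under the lower quartile on all spheroid arrays, and no detection call was used.

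**Figure D3:**
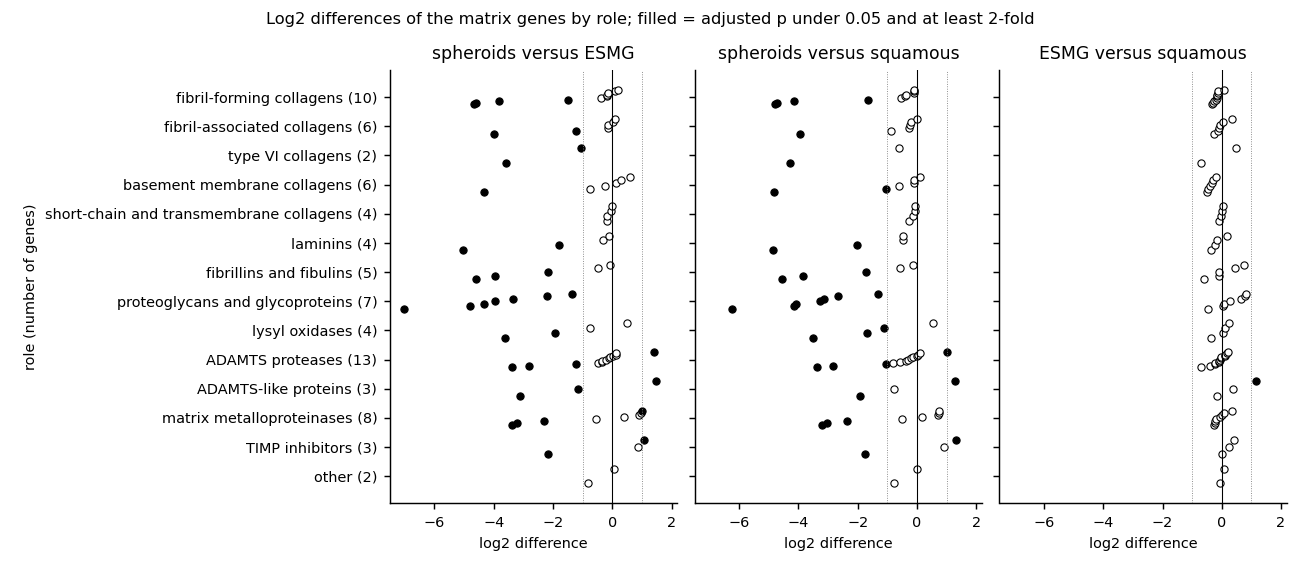
Log2 differences of the 77 matrix genes by role in spheroids versus ESMG, spheroids versus squamous tissue and ESMG versus squamous tissue; filled points passed an adjusted p under 0.05 and 2-fold (dotted lines), open points did not. Filled points lie left of 0 in most roles when spheroids are compared with either tissue, and the third panel has 1 filled point, ADAMTSL3.

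Set against squamous tissue, the same 3 spheroid arrays gave 31 members lower (8.05% of all genes were) and 3 higher (8.61% of all genes were), 34 in all against 16.7% of all genes. The median over members was -0.56 and over all genes 0.03. Both spheroid comparisons share the spheroid arrays, so their values are given side by side and not counted as separate evidence. MGP was 75.9-fold lower than in squamous tissue (-6.25, SE 0.24, adjusted p = 1.12e-08), whose levels were 11.71, 11.07 and 11.50. LAMA2 was 29.0-fold, COL15A1 28.2-fold, COL1A2 27.6-fold, COL3A1 26.4-fold and FBLN1 23.7-fold lower. COL6A3 was 19.7-fold, COL1A1 17.7-fold, DPT 17.6-fold, LUM 16.8-fold, and COL14A1 15.3-fold lower, and FBN1 differed by -3.85. LOX was 11.5-fold, ADAMTS9 10.5-fold, DCN 9.71-fold, MMP2 9.23-fold, POSTN 8.75-fold and MMP16 8.26-fold lower. These 18 genes were the ones past 8-fold, and on none of them did a spheroid array reach a squamous array. Separate groups were found for 45 members lower in spheroids (21.9% of all genes were) and 8 higher (28.6% of all genes were).

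The smaller falls against squamous tissue included ADAMTS2 (7.08-fold), FN1 (6.31-fold), LAMA4 (4.11-fold), TIMP3 (3.37-fold), LOXL1 (3.25-fold), COL5A2 (3.13-fold) and SPARC (2.48-fold). COL4A1 averaged 6.84 ± 0.22 in spheroids, against 7.88 ± 0.16 in squamous tissue (SD, n = 3 each) and was called at -1.05 (adjusted p = 0.000387). LOXL3 was called as well, at -1.11 (adjusted p = 0.000479), and ADAMTS12 at -1.05. COL4A1 was under 2-fold when pig 3 of the spheroids (-0.95) or pig 37 of squamous tissue (-0.99) was left out, LOXL3 without the same squamous array (-0.98) and ADAMTS12 without the same spheroid array (-0.90). With all arrays kept, COL4A1, LOXL3 and ADAMTS12 were also under 2-fold after quantile normalization (-0.97, -0.95 and -0.89) and under equal array medians (-0.92, -0.98 and -0.92), and ADAMTS12 with array weights (-0.95). COL4A1 and LOXL3 were called against squamous tissue and not against ESMG, while COL6A5, COL21A1, ADAMTSL4 and MMP19 were called against ESMG and not against squamous tissue. None of these 6 genes was called between ESMG and squamous tissue, so the effects were not shown to differ. COL7A1, at 8.04 ± 0.25 in spheroids and 7.95 ± 0.17 in squamous tissue (SD, n = 3 each), differed by 0.09 (adjusted p = 0.725).

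The 3 members above their squamous level were TIMP1, ADAMTSL5 and ADAMTS6. TIMP1 was 2.51-fold higher, with 11.16, 11.23 and 11.07 in spheroids against 10.44, 9.44 and 9.58 in squamous tissue (1.33, SE 0.33, adjusted p = 0.00708; 0.95 and under 2-fold with array weights). ADAMTSL5 was 2.44-fold (adjusted p = 0.00012) and ADAMTS6 2.02-fold higher (adjusted p = 0.0124), and ADAMTS6 lost its call when pig 3 of the spheroids (adjusted p = 0.0518) or pig 39 of squamous tissue (adjusted p = 0.0533) was left out, and was under 2-fold with array weights (0.88) and after cyclic loess (0.998). TIMP2, MMP14, MMP15 and MMP19 passed the adjusted p below 2-fold, at 0.90, 0.72, 0.73 and 0.73. TIMP2 passed 2-fold with array medians set equal and without the squamous array of pig 37 (both 1.03). With no fold minimum 8 members were higher (23.6% of all genes were) and 43 lower (17.4% of all genes were).

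ESMG was last set against squamous tissue from the same pigs. Of 77 members 1 was higher in ESMG (2.65% of all genes were) and 0 were lower (0.409% of all genes were; 3.06% were called in either direction). The 1 called member, ADAMTSL3, had 7.89, 8.80 and 8.19 in ESMG, against 7.02, 7.23 and 7.13 in squamous tissue (2.25-fold; 1.17, SE 0.20, adjusted p = 0.00534). Without the ESMG array of pig 39 its difference was 0.91 (adjusted p = 0.00972), under 2-fold. The median over members was -0.08 and over all genes -0.06, and at an adjusted p with no fold minimum 1 member was higher (4.4% of all genes were) and 1 lower (1.65% of all genes were).

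That lower gene was COL6A3, with 10.13, 10.04 and 10.64 in ESMG, against 11.03, 10.76 and 11.16 in squamous tissue (-0.71, SE 0.18, adjusted p = 0.0386). Its other probe sets gave -0.55 and -0.51. POSTN was 0.82 higher in ESMG (11.66, 12.06 and 11.19, against 10.59, 10.72 and 11.16 in squamous tissue) with no overlap, but missed the threshold (adjusted p = 0.0523). It was called without the ESMG array of pig 40, at 1.04 (adjusted p = 0.0076), and with array weights, at 1.05 (adjusted p = 0.00293). Array weights also gave a lower call in ESMG for ADAMTS8, at -1.15 (adjusted p = 0.0181). MGP, FBN1 and DPT differed by 0.77, 0.75 and 0.65 (adjusted p from 0.0919 to 0.134), with each ESMG array above each squamous array. FBLN1 differed by -0.59 and COL7A1 by -0.50 (adjusted p = 0.161 and 0.127), with each ESMG array the lower one.

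Groups were separate for 8 members higher in ESMG (9.88% of all genes were) and 6 lower (11.7% of all genes were). The type I and III collagens were close in both tissues: COL1A1 differed by -0.32, COL1A2 by -0.12 and COL3A1 by -0.13, and LUM and DCN by 0.27 and 0.06. For 65 of 77 members the 95% interval of the difference lay inside 2-fold either way. The 12 whose interval reached 2-fold were ADAMTS4, ADAMTS6, ADAMTS8, ADAMTSL3, COL6A3, DPT, FBLN1, FBN1, FN1, LAMA4, MGP and POSTN.

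Matrix genes outside the name rule were counted from lists of related genes. Of 28 other proteoglycan, elastic fibre and glycoprotein genes, 13 fell and 3 rose in spheroids against ESMG (8.91% and 7.99% of all genes). ABI3BP and SPARCL1, both secreted matrix proteins, fell by 5.74 and 5.46 on the log2 scale. NTN4, a netrin of basement membranes, rose by 2.24 and TNC, a glycoprotein of remodelling matrix, by 1.91. Against squamous tissue 12 fell and 3 rose (8.05% and 8.61% of all genes). SPARCL1 differed by -6.35, ABI3BP by -5.72, NTN4 by 3.61 and CTGF, a matricellular growth factor, by 1.64. The squamous arrays of CTGF were spread, at 9.27, 7.55 and 8.37 in pigs 37, 39 and 40. Between ESMG and squamous tissue 4 were higher in ESMG (2.65% of all genes were). The platelet adhesion protein THBS1 led at 2.41 (SE 0.55, limma adjusted p = 0.0248), then NTN4 at 1.37. THBS1 had 10.77, 7.94 and 10.34 in the squamous arrays of pigs 37, 39 and 40, so its size leans on the low array of pig 39.

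Of 18 genes that fold and process collagen, 4 fell and 3 rose in spheroids against ESMG, where 16.9% of all genes were called in either direction. Their median difference was 0.08. P4HA3 and P3H2, hydroxylases of procollagen prolines, rose by 1.76 and 1.66. CTSK, a protease that degrades collagen, and MIA3, which exports procollagen from the endoplasmic reticulum, differed by -1.48 and -1.40. Against squamous tissue 2 fell and 3 rose (8.05% and 8.61% of all genes). CTSK differed by -1.79, the collagen chaperone SERPINH1 by -1.30, P4HA3 by 1.67 and P3H2 by 1.51. MIA3 was the 1 gene of the list called between ESMG and squamous tissue, at 1.27.

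Of 19 receptors for the matrix, 7 rose and 3 fell in spheroids against ESMG (7.99% and 8.91% of all genes), with a median of 0.68. ITGA3 and ITGB4, integrin subunits that bind laminin, rose by 3.05 and 2.59. The fibronectin receptor subunit ITGA5 and its relative ITGA8 differed by -1.24 and -1.60. Against squamous tissue 8 rose and 2 fell (8.61% and 8.05% of all genes), with ITGA3 at 2.5, ITGB4 at 2.29, ITGA5 at -2.51 and ITGA8 at -2.32. Between ESMG and squamous tissue none of the 19 was called (3.06% of all genes were).

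TGF-beta signalling, which drives matrix production in fibroblasts, was covered by 11 genes. In spheroids against ESMG 1 rose (7.99% of all genes did), the ligand TGFB1 at 1.95. In the same comparison 4 fell (8.91% of all genes did), led by the co-receptors TGFBR3 at -1.79 and ENG at -1.27. Against squamous tissue 2 rose (8.61% of all genes did), TGFB1 at 1.92 and the receptor TGFBR1 at 1.72. A further 3 fell (8.05% of all genes did), among them TGFBR3 at -1.46 and the ligand TGFB3 at -1.45. With 11 genes, the counts of risen genes are too small to set apart from these shares. No gene of the list was called between ESMG and squamous tissue.

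**Figure D4:**
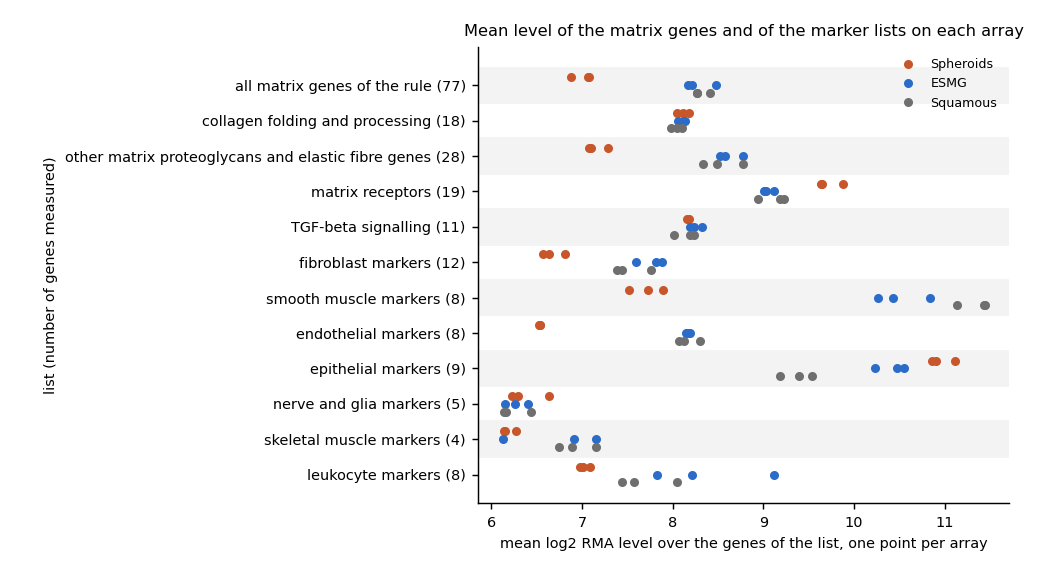
Mean log2 RMA level over the genes of each list, one point per array, with spheroids (orange) above ESMG (blue) and squamous tissue (grey). The 77 matrix genes, other matrix genes, fibroblast, smooth muscle, endothelial and leukocyte markers are lower on every spheroid array than on any tissue array, and epithelial markers and matrix receptors are higher.

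Markers of other cell types were measured beside the matrix genes. Of 12 fibroblast markers 5 fell in spheroids against ESMG (8.91% of all genes did) and 0 rose. The other 7, which included S100A4 at 0.71 and THY1 at -0.71, were not called. Their mean level was 6.57 to 6.82 in spheroids, 7.60 to 7.88 in ESMG and 7.39 to 7.76 in squamous tissue. The fibroblast protease FAP had 4.33, 3.98 and 4.14 in spheroids, under the lower quartile of each array, against 7.23, 7.58 and 7.08 in ESMG. TWIST1, TWIST2 and PRRX1, transcription factors of mesenchyme, differed by 0.27, -0.16 and -0.03, and PRRX1 was spread over 6.86, 8.81 and 7.99 in spheroids. Against squamous tissue 7 of 8 endothelial, 7 of 8 smooth muscle, 5 of 12 fibroblast and 4 of 8 leukocyte markers fell (8.05% of all genes did). In the same comparison 5 of 9 epithelial and 2 of 8 leukocyte markers rose (8.61% of all genes did). Between ESMG and squamous tissue, 4 epithelial, 1 fibroblast and 1 leukocyte marker were higher in ESMG (2.65% of all genes were). There 1 smooth muscle marker was lower (0.409% of all genes were).

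In spheroids against ESMG, where 8.91% of all genes fell and 7.99% rose, smooth muscle markers fell in 6 of 8. Their mean level was 7.52 to 7.89 in spheroids, 10.26 to 10.83 in ESMG and 11.13 to 11.44 in squamous tissue, and smooth muscle actin ACTA2 fell by 5.89. Endothelial markers fell in 7 of 8, with a mean of 6.52 to 6.54 in spheroids, 8.15 to 8.19 in ESMG and 8.07 to 8.30 in squamous tissue. Leukocyte markers fell in 5 of 8, with a mean of 6.98 to 7.09 in spheroids, 7.83 to 9.11 in ESMG and 7.44 to 8.05 in squamous tissue. Epithelial markers fell in none of 9 and rose in 2, with a mean of 10.85 to 11.11 in spheroids, 10.23 to 10.55 in ESMG and 9.18 to 9.54 in squamous tissue. Nerve and skeletal muscle lists, of 5 and 4 measured genes, had 2 (1 higher, 1 lower) and 0 called against ESMG, 2 and 1 against squamous tissue, and 0 each between the tissues. The part of these cell types in the matrix differences was not tested.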

How the data were processed

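The authors deposited log2 RMA values made in Affymetrix Expression Console, per the labels; RMA corrects background, aligns array distributions and summarises probes. Transcriptome Analysis Console 3.0 is also named, per the submitters' processing notes. No genome build is named in the labels. Of 27558 probe sets, 13157 had 1 symbol, 523 several entries and 13878 none in the platform annotation. Symbols were updated through RefSeq (12841 matched), and the probe set with the highest mean stood for a gene. Group means of all 9 arrays were fitted with limma 3.58.1 in R 4.3.3 (6 residual degrees of freedom), two-sided with Benjamini-Hochberg adjustment over 12217 genes. Members and gene lists were chosen with earlier results of these data known. Named were 26 measured key members, the called member with the largest rise and fall per role, members called against the majority, other members as space allowed, and the 2 largest called rises and falls of each related list. In simulated data with 12217 genes and independent noise, 92% to 95% of log2 differences of 1.5 were recovered per comparison. Differences near the 2-fold minimum were not simulated, so recovery of calls close to it is not known. ESMG and squamous arrays come from the same pigs, per the labels; deviations from group means correlated at 0.422, -0.147 and -0.168 in pigs 37, 39 and 40, so pig as a block was an alternative. Other alternatives were quantile, median and cyclic loess scaling, a filter on dim genes, averaged probe sets, no fold minimum, a fit of 2 groups, array weights and leaving out each array. No sequences are printed.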

Additional observations from a re-analysis of the deposited data

How the results depend on the processing

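Counts of fallen genes kept within 1.5 times under every alternative run: 30 to 38 in spheroids versus ESMG and 28 to 43 versus squamous tissue. With pig as a random block the calls stayed at 1, 36 and 34 in the 3 comparisons, and with pig as a fixed block of the 6 tissue arrays at 1, so the block changed no count. Leaving out 1 array gave 0 to 2 called genes in ESMG versus squamous tissue (0 to 2 higher, 0 to 0 lower; 0 without the ESMG array of pig 39, 2 without that of pig 40), 2 to 6 higher in spheroids versus ESMG and 2 to 4 versus squamous tissue. The count higher than ESMG was 2 without the spheroid array of pig 1 or pig 2 or the ESMG array of pig 39, and 6 without the spheroid array of pig 3 or the ESMG array of pig 40. The array weights ran from 0.373 to 8.236, so the arrays counted very unequally and the weighted differences can lean on few arrays. Array weights gave 3 called genes in ESMG versus squamous tissue (POSTN and ADAMTSL3 higher, so 2, and ADAMTS8 lower, so 1). In spheroids versus squamous tissue they gave 1 higher. With no fold minimum 2 were called in ESMG versus squamous tissue (1 lower), 9 were higher in spheroids versus ESMG and 8 versus squamous tissue. Cyclic loess gave 2 higher in spheroids versus ESMG. Over all genes the share of calls higher in spheroids was 47.3% versus ESMG, 57.1% with medians set equal and 37.8% after cyclic loess; versus squamous tissue it was 51.7%, 62.2% and 45.7%. Setting medians equal moved the median of all genes from 0.085 to 0.197 and from 0.033 to 0.162. Array weights moved called differences by over 1.5 times: in spheroids versus ESMG to -2.44 for DCN, -2.46 for MMP2, -2.65 for LAMA4 and -3.66 for LUM, and in spheroids versus squamous tissue to -2.53 for DCN, -3.04 for LAMA4 and -4.18 for LOX. Signs turned in genes that were not called. Array weights turned DCN to -0.093, SPARC to -0.162, LOX to -0.476, TIMP1 to -0.137, TIMP2 to -0.208 and MMP2 to -0.275 in ESMG versus squamous tissue, and LAMB1 to 0.001 in spheroids versus ESMG. Cyclic loess turned COL7A1 to -0.01 in spheroids versus squamous tissue. Leaving out 1 array gave, in ESMG versus squamous tissue, -0.307 to 0.068 for COL3A1, -0.021 to 0.674 for TIMP1, -0.111 to 0.189 for SPARC, -0.137 to 0.15 for TIMP2, -0.183 to 0.147 for MMP2, -0.005 to 0.168 for DCN and -0.157 to 0.557 for LOX. It gave -0.238 to 0.001 for LAMB1 in spheroids versus ESMG and -0.007 to 0.23 for COL7A1 in spheroids versus squamous tissue. The cause was not tested. Folds of genes near the lower quartile are limited by signal over background.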

Other observations

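Some members varied between arrays of a single group. Among the 32 genes that fell against ESMG, the highest of the 3 spheroid arrays was that of pig 2 for 15 (46.9%, against 38.5% of all genes), pig 1 for 13 (40.6%, against 25.7%) and pig 3 for 4 (12.5%, against 35.8%). MMP2 stood at 8.11 in pig 1, against 7.07 and 6.77 in the other spheroids. LAMA4 was lowest in pig 1, at 6.42. An SD over 0.5 among the spheroids occurred in 6 members (7.79%, against 2.40% of all genes). In squamous tissue it occurred in 7 members (9.09%, against 3.44% of all genes) and in ESMG in 3 (3.9%, against 6.12%).

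In the tissues, ADAMTS4, a protease that cuts aggrecan, was high in both samples of pig 40: 8.51 in ESMG and 8.23 in squamous tissue. In pigs 37 and 39 it had 6.48 and 6.37 in ESMG, and 6.60 and 6.77 in squamous tissue. The collagen crosslinking enzyme LOX had 11.14 in the squamous array of pig 37, against 9.71 and 9.83 in the other squamous arrays. COL12A1 had 10.22 there, against 8.50 and 9.03 in the others. The squamous array of pig 37 was the highest of its group for 35 of 77 members, against 23.0% of all genes. The labels do not say how these pigs differed.

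Neighbouring members were compared as a description. DCN and LUM, COL3A1 and COL5A2, and COL4A1 and COL4A2 each lie side by side in the RefSeq gene order. Against ESMG, the log2 difference in spheroids was -4.6 for COL3A1 and -1.49 for COL5A2. The pairs COL9A1 and COL19A1, and ADAMTS8 and ADAMTS15, are also neighbours, and none of these 4 genes was called in the reported fits. With array weights ADAMTS8 was called lower in ESMG (-1.15) and in spheroids (-1.10) than in squamous tissue.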
